A study of Mus musculus with 12 samples.

Results

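The genes described here are 10 antioxidant enzymes and metallothioneins of the mouse heart: Gpx3, Gpx1, Mgst1, Gstm1, Mt1, Mt2, Cat, Sod2, Hmox1 and Nqo1. They were taken by symbol from a deposited expression table of 24918 rows, where each had 1 row, and all 10 were among the 14721 genes tested. The table holds 12 RNA-seq libraries of untreated hearts from mice aged 2 months on a C57BL/6 background, in 4 groups of 3. By the titles, male and female floxed mice carry 2 copies of Nr3c1, the gene of the glucocorticoid receptor, with loxP sites (GRloxP/loxP), and cardioGRKO mice of each sex carry the same alleles plus the transgene αMHC-Cre, whose promoter is active in cardiomyocytes. Other cell types of the heart keep the receptor, and values per gene do not resolve the deleted exons. Cre is present in the cardioGRKO groups alone, so its effect and that of the deletion cannot be told apart. The floxed alleles are shared by all 4 groups, there is no group without them, and the genotype field of every library reads wild-type. The comparisons ask what differs in the heart when cardiomyocytes lack the receptor, and whether that depends on sex.

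Superoxide dismutases turn superoxide into hydrogen peroxide, which catalase, glutathione peroxidases and peroxiredoxins then reduce. Glutathione transferases join glutathione to reactive compounds, and many of these genes respond to the transcription factor NRF2. Metallothioneins are small cysteine-rich proteins that bind zinc and copper and can scavenge oxidants. Their genes respond to zinc through the factor MTF1 and are textbook targets of glucocorticoids.

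Values are the log2 levels deposited by the authors after normalization between libraries, and every difference is cardioGRKO minus floxed on that scale unless stated. A gene is said to be called when limma's adjusted p was under 0.05 over all 14721 genes. Read depth cannot be recovered from these values, and no label states whether each library came from its own animal. The p-values therefore reflect the scatter among these libraries alone, possibly technical. The median within-group SD was 0.025 to 0.029. Nr3c1 itself was 11.40, 11.42 and 11.42 in male floxed libraries and 10.83, 10.85 and 10.88 in male cardioGRKO libraries. By label, female floxed libraries stood at 10.74, 10.71 and 10.78, and female cardioGRKO libraries at 10.90, 10.90 and 10.85. The difference was -0.56 in males (SE 0.024, adjusted p = 2.45e-11) and 0.14 in females (SE 0.024, adjusted p = 0.000384). The female difference is the opposite of what the female labels say, so female directions below follow labels that this gene goes against. Among floxed libraries Nr3c1 was lower in the female group by 0.67 (limma, adjusted p = 1.37e-12). The cardioGRKO groups of the sexes were not called as different (0.030, adjusted p = 0.411). Neither female group thus reached the male floxed level, and both stood near male cardioGRKO. In the libraries labelled female floxed 1 and 2, corneal epithelial markers were also high, with a log2 summed level of 14.23 and 15.09 against 10.26 in female floxed 3 and 9.70 to 10.33 in the other 9 libraries. Counts of called genes in the female genotype comparison are also given without that pair, as are single differences that lose their call or move by over 1.5 times. Leaving out the pair leaves female floxed 3 alone in its group. Such values and calls therefore rest on that library, and the scatter is then that of the other groups. Cardiomyocyte markers such as Myh6 were the most abundant of the marker lists in all 4 groups, and the liver markers Alb, Apoa1, Ttr and Fabp1 were too low to be tested. In whole hearts, fewer cells of a type and less RNA per cell cannot be told apart.

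The promoters of Mt1 and Mt2 are shown because these neighbouring genes moved together in both sexes. Mt1 lies at chr8:94179082-94180327 and Mt2 at chr8:94172664-94173568, both on the plus strand, with 5.51 kb between the end of Mt2 and the start of Mt1 in build GRCm38. Each window runs from 250 bases before to 50 bases after the RefSeq transcription start (build GRCm38.p6), chr8:94178839-94179138 for Mt1 and chr8:94172368-94172667 for Mt2. Capitals mark the core of the metal response element, searched as TGCACNC or TGCGCNC on both strands.
Mt1: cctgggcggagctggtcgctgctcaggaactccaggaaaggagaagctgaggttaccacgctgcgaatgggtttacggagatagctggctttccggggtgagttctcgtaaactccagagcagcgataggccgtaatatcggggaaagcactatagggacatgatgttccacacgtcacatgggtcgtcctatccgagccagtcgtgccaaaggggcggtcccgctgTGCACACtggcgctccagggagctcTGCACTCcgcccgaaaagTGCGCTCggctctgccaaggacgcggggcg
Mt2: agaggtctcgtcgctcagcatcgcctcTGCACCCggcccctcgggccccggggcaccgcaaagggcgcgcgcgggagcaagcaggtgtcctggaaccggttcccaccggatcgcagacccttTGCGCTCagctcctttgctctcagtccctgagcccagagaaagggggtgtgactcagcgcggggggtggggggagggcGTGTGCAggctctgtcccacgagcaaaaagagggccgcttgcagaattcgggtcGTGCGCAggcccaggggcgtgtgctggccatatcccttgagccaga

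The Mt1 window holds 3 matches to this core and the Mt2 window 4, while 25.7% of all 32851 promoter windows of this length hold at least 1 and 1.97% hold at least 3. Among the 9 members with a window (11 windows in all), Gstm1 has 1 match in each of its 2 windows, and the windows of Gpx3, Gpx1, Mgst1, Cat, Sod2 and Nqo1 have 0. The antioxidant response core TGACNNNGC, searched the same way and found in 12.4% of all windows, has 1 match in the Mt2 window and 1 in the first of 2 Mgst1 windows. These 2 motifs do not overlap in the Mt2 window. The full palindromic glucocorticoid response element (AGAACA, 3 free bases and its inverted repeat) occurs in 3 of the 32851 windows and in 0 of those of the members. Its first part alone, AGAACA on either strand, has 1 match in the Gpx3 and Cat windows, 2 in the first Gstm1 window and 1 in the second Mgst1 window, and is found in 19.0% of all windows. A match is a description of letters, not evidence of a bound site. The lack of a match says little either, since sites outside these short windows were not searched and the full palindrome is rare in any window.

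In male hearts 8 of the 10 genes were called, 2 higher and 6 lower in cardioGRKO than in floxed libraries. Across all genes tested, 27.4% were called, 12.8% higher and 14.6% lower. In 9 of the 10 genes the 3 cardioGRKO libraries did not overlap with the 3 floxed ones, against 41.4% of all genes. The median difference of the members was -0.17, against -0.0021 over all genes. In the libraries labelled female 7 of 10 genes were called, 6 higher and 1 lower, against 29.3% of all genes, 15.2% higher and 14.0% lower. There 8 of 10 did not overlap, against 40.7% of all genes, and the median was 0.11, against -0.00037 over all genes. Without the libraries labelled female floxed 1 and 2, 5 members were called higher and 1 lower, with a median of 0.11, while 18.6% of all genes were called. Of the 10 genes, 5 were called in opposite directions in the 2 sexes (Gpx3, Mgst1, Mt1, Mt2 and Nqo1), against 8.57% of all genes. Gpx1 was the 1 member called in the same direction in both, against 3.94% of all genes. The members were chosen with earlier results of these data known. Their counts beside the shares of all genes, here and below, are therefore a description and not a test of the set.

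**Figure D1:**
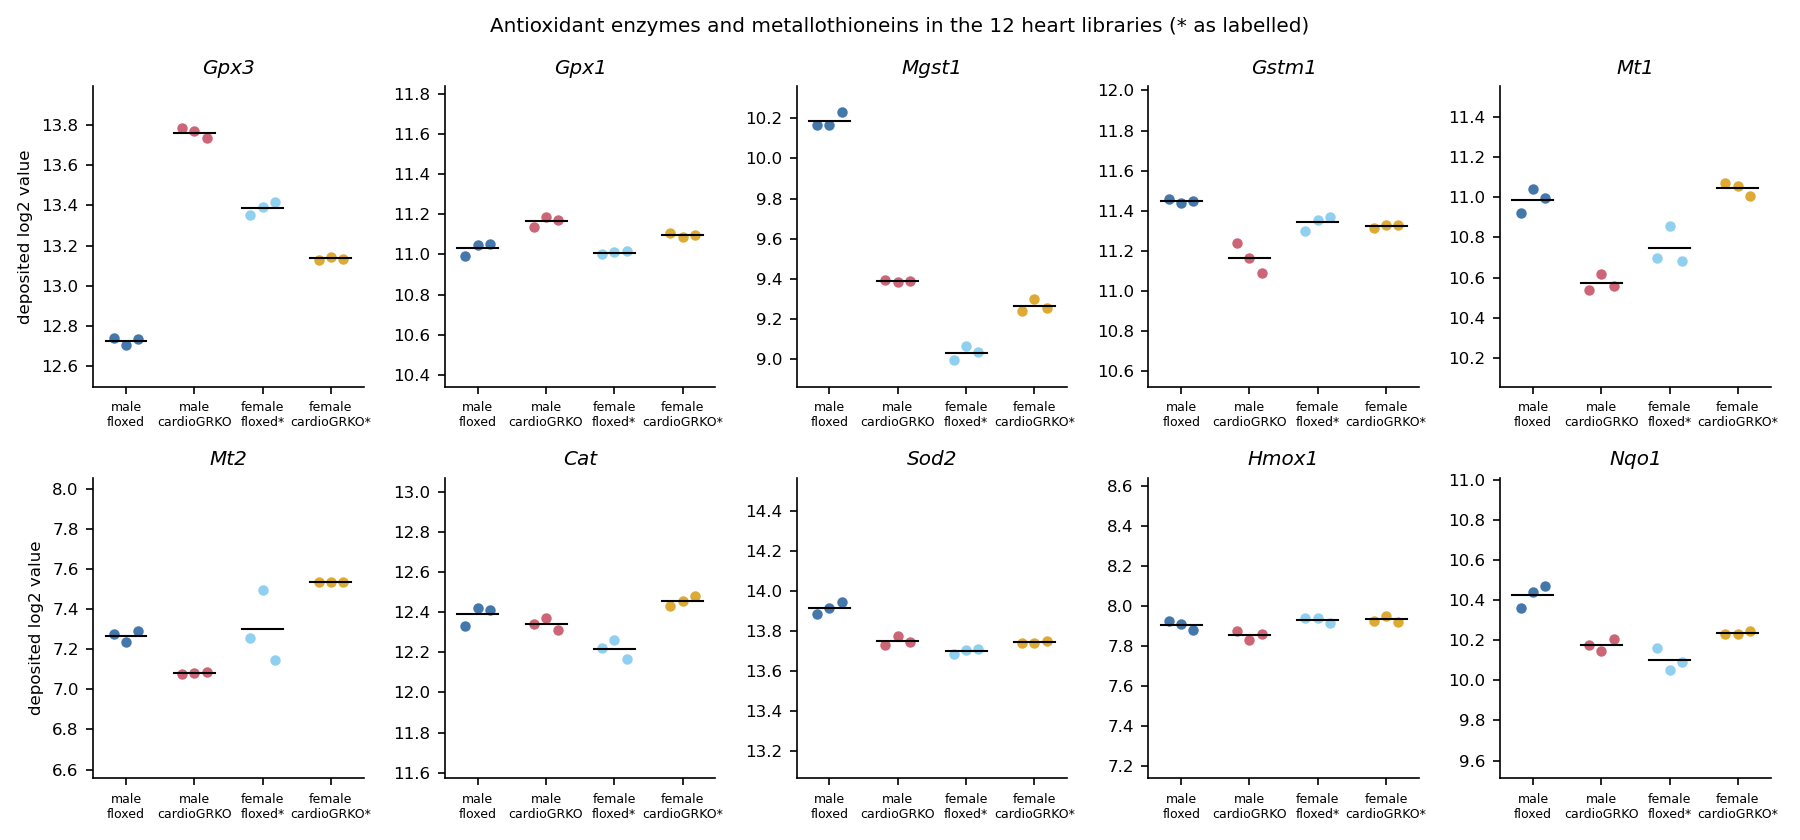
Deposited log2 values (vertical axes, each spanning 1.5 log2 units) of the 10 genes by library (points in replicate order, 3 per group) and group means (lines); asterisks mark groups named as labelled. Gpx3 is lowest and Mgst1 highest in male floxed hearts, and Mt1 is lower in male cardioGRKO and in labelled female floxed hearts than in the other groups.

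Gpx3 had the largest male difference of the 10 genes. It encodes the glutathione peroxidase that is secreted into plasma and other extracellular fluid, a selenoprotein. Its level was 12.74, 12.71 and 12.73 in male floxed libraries and 13.78, 13.77 and 13.73 in male cardioGRKO libraries. The male groups lay far apart, and Gpx3 rose 2.05-fold, by 1.04 log2 (SE 0.020, adjusted p = 3.3e-16). Among the 14721 genes it was the 17th largest rise. Under the female labels, floxed hearts had 13.35, 13.39 and 13.42 and cardioGRKO ones 13.13, 13.14 and 13.13. These groups did not overlap either, but in the other direction, with a fall to 84.1% of the floxed level (-0.25, SE 0.020, adjusted p = 7.88e-08). The male and the female difference differed from each other by 1.29 (SE 0.028, adjusted p = 2.19e-15). The order of the group levels, from high to low, was male cardioGRKO, female floxed, female cardioGRKO and male floxed. The female group was higher by 0.66 among floxed libraries (adjusted p = 1.14e-13) and lower by 0.63 among cardioGRKO libraries (adjusted p = 5.07e-13).

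The summed level of atrial muscle markers, led by Nppa, took the same order of groups as Gpx3. The log2 summed level of 7 markers (Nppa, Myl4, Myl7, Sln, Bmp10, Mybphl and Dkk3) was 14.88 to 14.91 in male floxed, 17.08 to 17.09 in male cardioGRKO, 16.73 to 16.78 in female floxed as labelled and 15.66 to 15.69 in female cardioGRKO. In Myl4, Myl7 and Mybphl female cardioGRKO was the lowest group instead of male floxed. All 7 were called higher in males and lower in females, with and without the pair, and none is listed at 0. The summed level of epicardial markers (Upk3b, Msln, Wt1 and Krt19) had the same directions within each sex, at 9.74 to 9.78 and 10.04 to 10.06 in male floxed and cardioGRKO libraries and at 9.93 to 9.98 and 9.62 to 9.66 in female ones, which were the lowest of all under cardioGRKO. Of these 4 markers 3 were called higher in males and 3 lower in females, also without the pair. The part of atrial or epicardial tissue in the Gpx3 result was not tested.

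Likeness of profile was measured as the root mean square difference over the 12 libraries after centring each gene on its mean, for members with an SD of at least 0.2 over the libraries. Of 14720 other genes, the 3 nearest to Gpx3 were Sfrp5, a secreted Wnt antagonist (0.078 log2), Igfbp5, an insulin-like growth factor binding protein (0.10), and Pam, the amidating enzyme abundant in atrial granules (0.11). Pam stood at 14.35, 15.29, 14.86 and 14.45 on average in the male floxed and cardioGRKO groups and then the female floxed and cardioGRKO groups, the same order of groups as Gpx3.

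**Figure D2:**
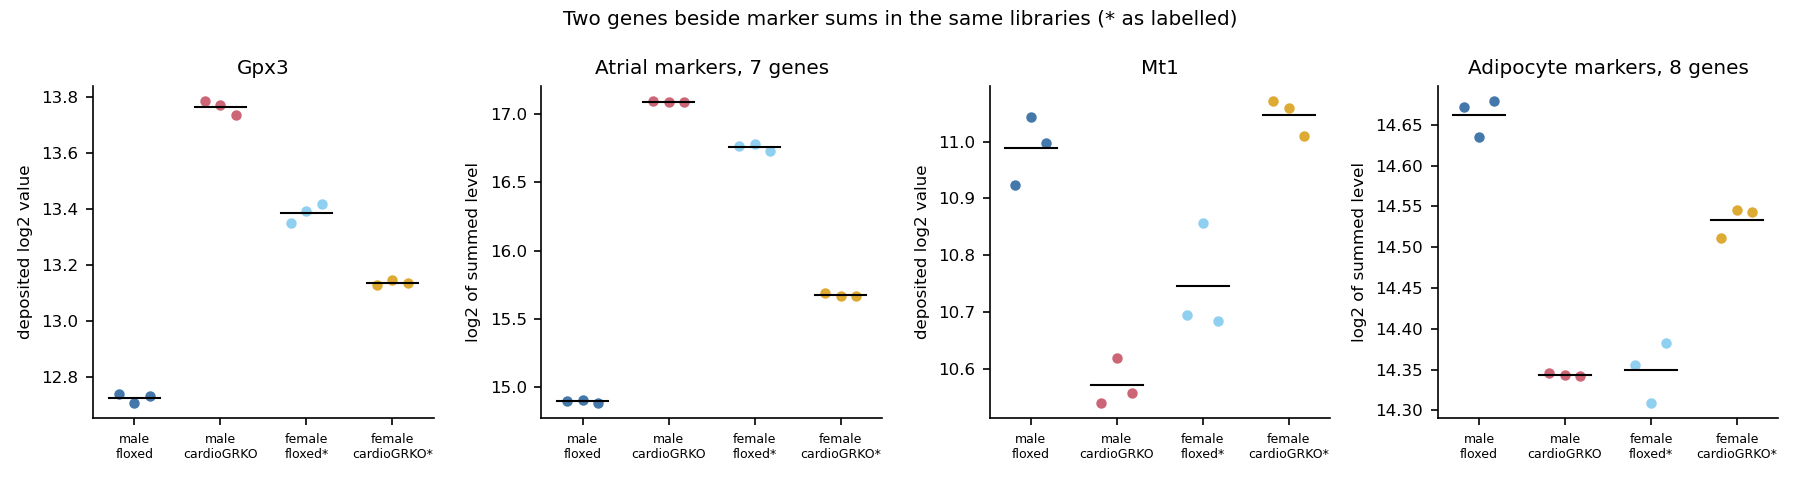
Deposited log2 values of Gpx3 and Mt1 (panels with gene names) beside the log2 of the summed level of 7 atrial and 8 adipocyte markers (panels with marker sums) in the 12 libraries (points) with group means (lines); asterisks mark groups named as labelled. Gpx3 and the atrial sum are both highest in male cardioGRKO and lowest in male floxed libraries. Mt1 and the adipocyte sum are both lower in male cardioGRKO and in labelled female floxed hearts than in the other groups. The adipocyte sum is nearly all Fabp4.

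Gpx1, the glutathione peroxidase of the cytosol and mitochondria and also a selenoprotein, differed little. It was 10.99, 11.05 and 11.05 in male floxed and 11.14, 11.19 and 11.17 in male cardioGRKO libraries, groups that did not overlap. The rise was 9.81% (0.13 log2, SE 0.022, adjusted p = 0.000165). By label, female floxed libraries had 11.00, 11.01 and 11.02 and cardioGRKO ones 11.11, 11.09 and 11.10, a rise of 6.25% (0.087, SE 0.022, adjusted p = 0.00673). Without the libraries labelled female floxed 1 and 2 that difference was 0.080 and not called (adjusted p = 0.114, the highest of 15 alternatives, the lowest being 0.00546). The sexes' differences were not called as different (0.048, SE 0.031, adjusted p = 0.269). Between the cardioGRKO groups the female one was lower by 0.069 (adjusted p = 0.0298), a call lost without male cardioGRKO 2 or 3 or without the library labelled female cardioGRKO 2 or 3 (adjusted p = 0.116, 0.0871, 0.0905 and 0.0672, within a range of 0.0244 to 0.116 over 15 alternatives).

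Catalase (Cat), which splits hydrogen peroxide in peroxisomes, was called in females alone. Its level was 12.33, 12.42 and 12.41 in male floxed and 12.34, 12.37 and 12.31 in male cardioGRKO libraries, which overlapped (-0.049, SE 0.028, adjusted p = 0.226). In females, as labelled, floxed libraries had 12.22, 12.26 and 12.16 and cardioGRKO ones 12.43, 12.46 and 12.48. Catalase thus rose by 18.1% under the female cardioGRKO label (0.24, SE 0.028, adjusted p = 7.01e-06), and by 0.29 without the libraries labelled female floxed 1 and 2. The difference between the sexes' differences was -0.29 (SE 0.039, adjusted p = 2.48e-05). Sod2, the manganese superoxide dismutase of mitochondria, was called in males alone. It stood at 13.89, 13.92 and 13.94 in male floxed libraries and at 13.73, 13.78 and 13.75 in male cardioGRKO libraries, a fall to 89.3% of the floxed level (-0.16, SE 0.017, adjusted p = 1.57e-06). Under the female labels, floxed hearts had 13.69, 13.71 and 13.71 and cardioGRKO ones 13.74, 13.74 and 13.75, which did not overlap but were not called (0.042, SE 0.017, adjusted p = 0.0785). The male and female differences differed by -0.21 (SE 0.024, adjusted p = 5.6e-06). In Sod2 the male floxed group stood above the other 3, which lay between 13.70 and 13.75 on average.

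Mgst1 encodes a membrane-bound glutathione transferase of the endoplasmic reticulum and the outer mitochondrial membrane. Its level was 10.17, 10.17 and 10.23 in male floxed and 9.40, 9.38 and 9.39 in male cardioGRKO libraries. It fell to 57.5% of the floxed level (-0.80, SE 0.028, adjusted p = 1.44e-12), the 7th largest fall among the genes tested. By label, female floxed libraries had 8.99, 9.07 and 9.03 and cardioGRKO ones 9.24, 9.30 and 9.26, a rise of 17.5% (0.23, SE 0.028, adjusted p = 8.55e-06). Every male floxed library lay above the other 9, and the libraries labelled female floxed were the lowest of all. The female group was lower by 1.16 among floxed libraries, at 44.9% of the male level (adjusted p = 6.84e-15), and lower by 0.12 among cardioGRKO libraries (adjusted p = 0.00343). The genotype differences of the sexes differed by -1.03 (SE 0.039, adjusted p = 4.7e-12). The sum of endothelial markers had the same highest and lowest group, with a log2 summed level of 6 markers of 15.34 to 15.36 in male floxed, 15.19 to 15.20 in male cardioGRKO, 15.07 to 15.12 in female floxed as labelled and 15.20 to 15.22 in female cardioGRKO. Of the 6, Emcn was highest in female floxed and lowest in male cardioGRKO libraries, and Tek was lowest in male cardioGRKO libraries. All 6 were called lower in males, and 4 were called higher and 1 lower in females (3 and 1 without the pair), with none listed at 0. Their part in the Mgst1 result was not tested. The 3 genes with the profile nearest to Mgst1 were Iigp1, an interferon-induced GTPase (root mean square difference 0.075 log2), Bdh1, an enzyme of ketone body use (0.075), and Myot, the Z-disc protein myotilin (0.11).

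Gstm1 is a cytosolic glutathione transferase of the mu class, whose 7 family symbols in the table stand for closely similar genes, so its counts are uncertain where reads could come from a neighbour. It was 11.46, 11.44 and 11.45 in male floxed and 11.24, 11.17 and 11.09 in male cardioGRKO libraries, without overlap, a fall to 82.1% (-0.28, SE 0.030, adjusted p = 1.73e-06). In females, as labelled, floxed libraries had 11.30, 11.36 and 11.37 and cardioGRKO ones 11.32, 11.33 and 11.33. The latter lay within the range of the former (-0.017, SE 0.030, adjusted p = 0.724). Without the libraries labelled female floxed 1 and 2 that difference was -0.045. The genotype differences of the sexes differed by -0.27 (SE 0.043, adjusted p = 0.000132). Between floxed groups Gstm1 was lower in the libraries labelled female by 0.11 (adjusted p = 0.009), a call lost without the library labelled female floxed 1 (adjusted p = 0.0527) and without both 1 and 2 (-0.079, adjusted p = 0.123, the highest of 15 alternatives, the lowest being 0.00125).

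**Figure D3:**
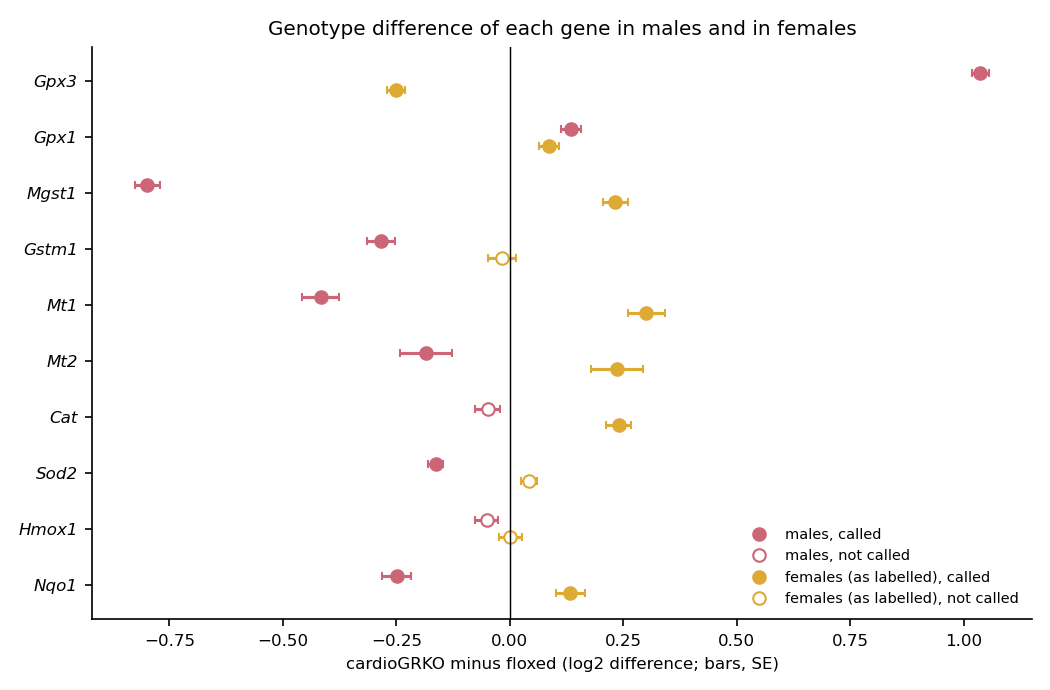
Log2 difference of cardioGRKO minus floxed libraries (horizontal axis; points, with bars of 1 SE) for each of the 10 genes in males and, as labelled, in females; filled points were called by limma and open points were not. Males range from -0.80 for Mgst1 to 1.04 for Gpx3 and females from -0.25 for Gpx3 to 0.30 for Mt1.

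The metallothioneins Mt1 and Mt2 were both lower in male cardioGRKO hearts than in male floxed ones, and under the female labels cardioGRKO was the higher group. Mt1 was 10.92, 11.04 and 11.00 in male floxed and 10.54, 10.62 and 10.56 in male cardioGRKO libraries. It fell to 74.9% of the floxed level (-0.42, SE 0.041, adjusted p = 6.53e-07), with no overlap. Under the female labels, floxed hearts had 10.70, 10.86 and 10.68, replicate 2 standing above the others, and cardioGRKO ones 11.07, 11.06 and 11.01. This was a rise of 23.2% (0.30, SE 0.041, adjusted p = 3.5e-05). The male and the female difference differed by -0.72 (SE 0.058, adjusted p = 5.69e-08). In order from high to low the groups were female cardioGRKO, male floxed, female floxed and male cardioGRKO, and between the cardioGRKO groups the female one was higher by 0.47 (adjusted p = 2.56e-07).

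Mt2 was much lower than Mt1 in the table, at 7.28, 7.23 and 7.29 in male floxed and 7.07, 7.08 and 7.09 in male cardioGRKO libraries. The groups did not overlap, with a fall to 88.0% of the floxed level (-0.19, SE 0.057, adjusted p = 0.0219). This call did not hold without male floxed 1 or 3 (adjusted p = 0.0626 and 0.072), without male cardioGRKO 1, 2 or 3 (0.0623, 0.0568 and 0.0538) or with robust moderation (0.0992), within a range of 2.51e-06 to 0.0992 over 15 alternatives. The libraries labelled female floxed were spread widely, at 7.26, 7.49 and 7.14 (SD 0.18), while those labelled female cardioGRKO stood at 7.53, 7.53 and 7.54. Mt2 was higher under the female cardioGRKO label by 17.8% (0.24, SE 0.057, adjusted p = 0.00499), and by 0.39 without the libraries labelled female floxed 1 and 2. The sexes' differences differed by -0.42 (SE 0.080, adjusted p = 0.000649). Among floxed libraries the difference between the sexes was 0.032 (adjusted p = 0.676). It became 0.11 and called without the library labelled female floxed 3 (adjusted p = 0.0454), and adjusted p reached 0.937 over 15 alternatives. Without the libraries labelled female floxed 1 and 2 it was -0.12. That value rests on female floxed 3 alone, the lowest of its group, and is not a difference between groups. In GENCODE M21 the antisense gene Gm45774 shares 432 exonic bases with Mt2, which is 73.5% of its exons. Whether strand was used in counting is not given in the sources used here, so reads of the pair could not be separated if it was not.

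The summed level of the adipocyte marker list, nearly all of it Fabp4, had the directions of Mt1. The sum thus mainly follows Fabp4 and by itself does not measure adipocytes. The sum of endothelial markers had the same directions within each sex. The log2 summed level of the 8 markers was 14.63 to 14.68 in male floxed, 14.34 to 14.35 in male cardioGRKO, 14.31 to 14.38 in female floxed as labelled and 14.51 to 14.55 in female cardioGRKO. Of the 7 tested, 4 were called lower and 2 higher in males, and 6 higher and 0 lower in females, with and without the pair, with none of the 8 listed at 0. Fabp4 fell by 0.34 in males and rose by 0.15 in females (adjusted p = 1.44e-09 and 2.66e-05), whereas Cfd rose in both sexes, by 0.51 and 0.59 (adjusted p = 1.75e-09 and 5.58e-10). These 2 markers were named after their values were seen. Their part in the metallothionein result was not tested. The nearest profiles to Mt1 were those of Lipe, the hormone-sensitive lipase (root mean square difference 0.082 log2), Ly6a, the surface antigen Sca-1 (0.087), and Btnl9, a butyrophilin-like gene (0.090).

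Other genes of metal handling were called in both directions in each sex, against 27.4% of all genes called in males and 29.3% in females. Of 14 tested, 4 were called higher and 3 lower in males (median 0.039) and 4 higher and 1 lower in females (median -0.028, or 3 and 2 without the libraries labelled female floxed 1 and 2). Slc30a1, the zinc exporter that MTF1 induces, had 9.81, 9.82 and 9.84 in male floxed and 9.69, 9.66 and 9.71 in male cardioGRKO libraries (-0.14, adjusted p = 0.000503). Under the female labels it had 9.55, 9.55 and 9.54 in floxed and 9.75, 9.74 and 9.81 in cardioGRKO libraries (0.22, adjusted p = 5.27e-06). It thus had the directions of Mt1 in both sexes, though its male value was looked up after values were seen. Slc39a8, an importer of zinc and manganese, went the other way, with 0.31 in males (adjusted p = 8.3e-07) and -0.34 in females (adjusted p = 5.05e-07). Slc39a14, another importer, fell by 0.28 in males (adjusted p = 5.94e-08). Mt3 and Mtf1 were looked up after the values were seen. Mt3, the brain metallothionein, was low in these hearts, at 5.75 to 5.95, and rose by 0.18 in males (adjusted p = 2.08e-06). Mtf1 differed by 0.037 in males (adjusted p = 0.44) and by 0.097 in females (adjusted p = 0.0291), a call lost without the libraries labelled female floxed 1 and 2 (0.035, adjusted p = 0.639). Mt4 is listed at 0 in all 12 libraries.

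Nqo1 and Hmox1 are textbook targets of NRF2. Nqo1, a quinone reductase, was 10.36, 10.44 and 10.47 in male floxed and 10.18, 10.14 and 10.20 in male cardioGRKO libraries. The groups did not overlap, and Nqo1 fell to 84.1% of the floxed level (-0.25, SE 0.031, adjusted p = 1.14e-05). By label, female floxed libraries had 10.16, 10.05 and 10.09 and cardioGRKO ones 10.23, 10.23 and 10.24, a rise of 9.71% (0.13, SE 0.031, adjusted p = 0.00438). The sexes' differences differed by -0.38 (SE 0.044, adjusted p = 4.28e-06). Between floxed groups the female one was lower by 0.32 (adjusted p = 3.41e-07), whereas the cardioGRKO groups were not called as different (0.059, adjusted p = 0.196). Hmox1, the inducible heme oxygenase, spanned 7.83 to 7.95 in all 12 libraries. It was 7.93, 7.91 and 7.88 in male floxed and 7.87, 7.83 and 7.86 in male cardioGRKO libraries (-0.051, SE 0.025, adjusted p = 0.162). The libraries labelled female had 7.94, 7.94 and 7.91 in floxed and 7.93, 7.95 and 7.92 in cardioGRKO hearts (0.0015, SE 0.025, adjusted p = 0.972). Without the libraries labelled female floxed 1 and 2 that difference was 0.020. Between cardioGRKO groups Hmox1 was higher in the libraries labelled female by 0.079 (adjusted p = 0.0335), a call lost without male cardioGRKO 2 or 3 (adjusted p = 0.122 and 0.0688) or without the library labelled female cardioGRKO 1, 2 or 3 (0.0613, 0.113 and 0.0508), and without the libraries labelled female floxed 1 and 2 (0.0504), within 0.0117 to 0.122 over 15 alternatives.

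Between the floxed groups 7 of the 10 genes were called, 1 higher (Gpx3) and 6 lower in the libraries labelled female, against 44.2% of all genes, 21.5% higher and 22.7% lower. Here 7 of 10 did not overlap, against 50.8% of all genes. Without the libraries labelled female floxed 1 and 2, which leaves female floxed 3 alone, Mt2 stood at -0.12 and Gstm1 at -0.079. Between the cardioGRKO groups 8 were called, 5 higher and 3 lower in the libraries labelled female, against 24.2% of all genes, 11.9% higher and 12.4% lower, and 9 of 10 did not overlap, against 40.1% of all genes. The genotype comparisons and these comparisons share libraries. The male genotype difference was called as different from the female one in 8 of 10 genes, higher in 1 and lower in 7, against 31.3% of all genes, 14.3% higher and 17.0% lower. Gpx1 and Hmox1 were the 2 not called.

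Levels of different genes were compared per length. On the log2 level per kilobase of exon (GENCODE M21), averaged over the 12 libraries, Gpx3 was the highest at 12.39, followed by Cat at 10.96, Gstm1 at 10.76, Gpx1 at 10.55 and Mt1 at 10.52. Sod2 followed at 10.46 over exons of 10008 bases in all, a length that includes every annotated transcript and lowers its value if the longest are unused. The lengths used for Mt1 (1246 bases) and Gpx1 (1441 bases) equal their whole gene spans, any introns included. The values of Mt1 and Gpx1 and their places in this order may therefore be too low. Nqo1 stood at 9.60, Mgst1 at 8.46, Mt2 at 8.06 and Hmox1 at 7.10. In build GRCm38, Gpx3 lies at chr11:54902453-54910377 and Gpx1 at chr9:108338903-108340343. Mgst1 lies at chr6:138140316-138156755 and Gstm1 at chr3:108012255-108017973. Cat is at chr2:103453849-103485160 and Sod2 at chr17:13006846-13040063. Like the metallothioneins, Hmox1 (chr8:75093621-75100589) and Nqo1 (chr8:107388225-107403206) are on chromosome 8. Gstm1, Cat and Nqo1 are on the minus strand and the other members on the plus strand.

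Related genes were counted in 10 lists without the members. The lists share some genes, and together hold 118 tested ones. Of these, 17 were called higher and 31 lower in males, with a median of -0.010, and 31 higher and 17 lower in females, with a median of -0.0060. These counts and those of each list below stand against 27.4% of all genes called in males and 29.3% in females. A gene named below for males or females alone was picked by its difference there and may differ in the other sex too. Without the libraries labelled female floxed 1 and 2 the female counts were 20 higher and 8 lower, with a median of 0.0073.

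Peroxidases and reductases moved in both directions. Of 9 other glutathione peroxidases and peroxiredoxins 3 were called higher and 2 lower in each sex, but in females 2 higher and 0 lower without the libraries labelled female floxed 1 and 2. Prdx3, the peroxiredoxin of mitochondria, fell by 0.17 in males (adjusted p = 9.86e-07), and Gpx4, which reduces lipid peroxides, rose by 0.16 (adjusted p = 0.000107). Prdx6 and Prdx1 rose by 0.097 and 0.094 in females (adjusted p = 0.00808 and 0.0392). The female Prdx1 groups overlapped, and that difference was 0.15 without the libraries labelled female floxed 1 and 2. In the other sex, Prdx3 rose by 0.055 in females (adjusted p = 0.0237), or 0.045 without that pair. Prdx6 fell by 0.077 in males (adjusted p = 0.029). Gpx4 in females and Prdx1 in males were not called (-0.033 and -0.030, adjusted p = 0.356 and 0.564). Of 3 other members of the list of superoxide dismutases and catalase (Sod1, Sod3 and the copper chaperone Ccs), 0 were called by limma in either sex, nor in females without that pair. Of 15 thioredoxin and glutaredoxin genes, 1 was called higher and 3 lower in males, and 4 higher and 3 lower in females (2 and 2 without the pair). Txnip, which binds thioredoxin and restrains glucose uptake, had 14.67, 14.65 and 14.67 in female floxed libraries, as labelled, against 13.87, 13.88 and 13.88 in female cardioGRKO ones. It fell by 0.79 there (SE 0.014, adjusted p = 2.29e-16) and rose by 0.11 in males (adjusted p = 1.91e-05). Txnrd1, a thioredoxin reductase, fell by 0.11 in males (adjusted p = 0.00272), and Msrb1, a methionine sulfoxide reductase, fell by 0.16 in females (adjusted p = 1.81e-05). In females Txnrd1 rose by 0.089 (adjusted p = 0.0138), or 0.095 without the pair, and in males Msrb1 was not called (-0.0041, adjusted p = 0.915). Among 10 genes of glutathione synthesis and reduction 1 was called higher and 2 lower in males, and 1 higher and 3 lower in females (0 and 1 without the pair). Ggt5 changed by -0.17 and Ggct by 0.11 in males (adjusted p = 0.000729 and 0.00888). In females Chac1, which degrades glutathione, changed by -0.16 and Ggct by -0.12 (adjusted p = 0.00453 and 0.0045). Without the pair Chac1 stood at -0.056 (adjusted p = 0.379), while Ggct stayed at -0.11 and was no longer called (adjusted p = 0.0669).

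Other glutathione transferases were called higher in 4 and lower in 5 of 17 cases in males, and higher in 1 and lower in 5 in females. Gstm7 and the microsomal Mgst3 both fell by 0.40 in males (adjusted p = 3.07e-09 and 8.99e-10). Mgst3 had 12.66, 12.65 and 12.62 in male floxed and 12.28, 12.20 and 12.25 in male cardioGRKO libraries. In females Gsto1 and Gsta4 changed by -0.80 and -0.58 (adjusted p = 0.0173 and 0.0135), but their groups overlapped, and without the libraries labelled female floxed 1 and 2 they stood at 0.082 and 0.0059 (adjusted p = 0.0827 and 0.942). Without that pair, 1 transferase was called higher and 2 lower in females.

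NRF2 and its targets were called higher in 2 and lower in 5 of 23 cases in males, with a median of 0.0021, and higher in 10 and lower in 1 in females, with a median of 0.066. Without the libraries labelled female floxed 1 and 2 the female count was 5 higher and 0 lower, with a median of 0.088. In males Ephx1, an epoxide hydrolase, rose by 0.19 and Aox1, an aldehyde oxidase, fell by 0.14 (adjusted p = 7.1e-05 and 0.000396). In females Ces1d, a carboxylesterase abundant in fat, rose by 0.27 (adjusted p = 4.76e-07). Tkt, the transketolase, changed by -0.67 in females with overlapping groups (adjusted p = 0.0227) and stood at 0.10 without the pair (adjusted p = 0.0674). Nfe2l2, which encodes NRF2, and its inhibitor Keap1 were looked up after the values were seen. In males they differed by 0.021 and 0.013 (adjusted p = 0.577 and 0.74), and in females by 0.083 and 0.068 (adjusted p = 0.0154 and 0.0359). Without that pair the differences were 0.073 and 0.088, no longer called with fewer libraries (adjusted p = 0.169 and 0.0848).

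Genes of NADPH supply, which feed glutathione reduction, were called higher in 1 and lower in 6 of 11 cases in males (median -0.097) and higher in 4 and lower in 0 in females (median 0.064, or 3 and 0 without the pair). Nadk2, which makes mitochondrial NADP, changed by -0.21 in males and 0.19 in females (adjusted p = 0.000293 and 0.00124), or 0.11 in females without the pair (adjusted p = 0.0423). The isocitrate dehydrogenase Idh1 fell by 0.21 in males and the mitochondrial Idh2 rose by 0.14 in females (adjusted p = 1.91e-05 and 3.83e-07). In males Idh2 averaged 15.81 in floxed and 15.65 in cardioGRKO libraries, and in females Idh1 averaged 10.54 and 10.56. Among 14 oxidant sources 0 were called higher and 4 lower in males, and 3 higher and 1 lower in females (3 and 0 without the pair). Xdh, the xanthine dehydrogenase, fell by 0.25 in males and rose by 0.31 in females (adjusted p = 1.75e-06 and 2.27e-07). The monoamine oxidase Maob fell by 0.32 in males (adjusted p = 1.67e-07). Of 10 genes of heme breakdown and iron storage 1 was called higher and 4 lower in males, and 4 higher and 1 lower in females, or 1 and 1 without the pair. Alas1, the first enzyme of heme synthesis, fell by 0.39 in males (adjusted p = 7.38e-11). Haptoglobin (Hp) changed by -0.17 in males and 0.30 in females (adjusted p = 1.33e-05 and 2.15e-08), and the transferrin receptor Tfrc by -0.20 in females (adjusted p = 8.7e-07).

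**Figure D4:**
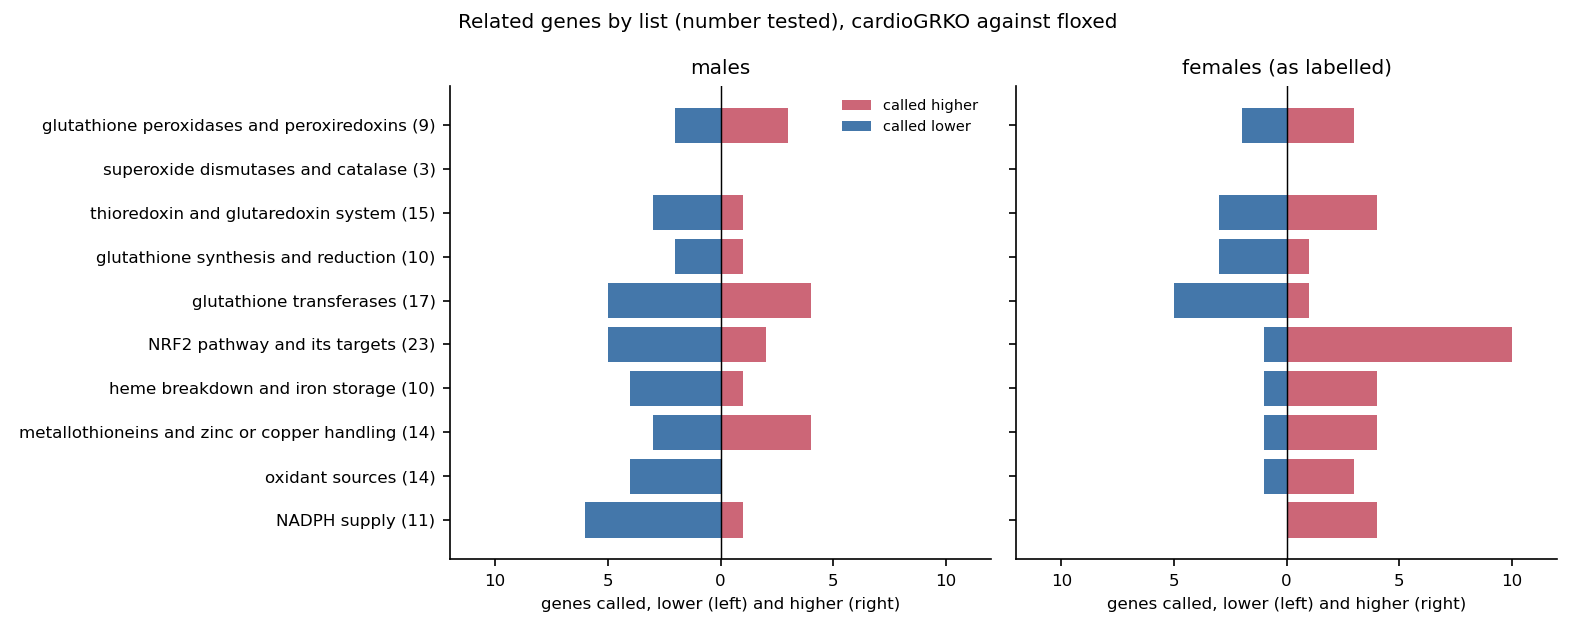
Number of genes called lower (bars to the left) and higher (bars to the right) in cardioGRKO than in floxed libraries in each of 10 lists of related genes without the members, in males and, as labelled, in females; the number tested stands beside each list. Over all genes tested, 27.4% were called in males and 29.3% in females. NADPH supply has 6 lower and 1 higher in males and 0 lower and 4 higher in females, and the NRF2 list has 10 higher in females, against 5 without the pair of libraries with corneal markers.

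Markers of other cell types moved with the groups as well, and their part in the results of the members was not tested. These counts and those of the markers above stand against 27.4% of all genes called in males and 29.3% in females. Fibroblast markers were called higher in 7 and lower in 0 of 8 cases in males and higher in 1 and lower in 5 in females, or 0 and 3 without the libraries labelled female floxed 1 and 2. Cardiomyocyte markers were called higher in 0 and lower in 7 of 8 in males and higher in 3 and lower in 1 in females, or 3 and 4 without that pair. Of 3 tested erythroid markers, 1 was called higher in males and 3 in females, with and without the pair, while Hba-a1 and Hbb-b1 are listed at 0 in all libraries. Macrophage markers were called in 0 of 6 cases in males, and higher in 2 and lower in 1 in females, or 0 and 1 without the pair. Of 4 tested skeletal muscle markers 4 were called higher in males, and 3 higher and 1 lower in females (3 and 0 without the pair). All 8 corneal markers were called lower in females, and 2 of them without the libraries labelled female floxed 1 and 2.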

How the data were processed

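Log2 expression values of 24918 rows in 12 heart libraries were deposited by the authors in 1 table. Per the labels' protocols, heart RNA was isolated by Trizol followed by RNeasy, and TruSeq libraries were sequenced on a NextSeq500 instrument. Per the submitters' processing notes, Trim Galore, TopHat2, HTSeq, DESeq2 and build mm9 were used. Their versions are not given in the sources used here. The authors' normalized log2 values reach down to -2.20, and differences of low genes look shrunken, so folds of low genes may be understated.

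Genes at or above log2 of 10 in at least 3 libraries were tested with limma 3.58.1 in R 4.3.3, with 1 mean per group, 8 residual degrees of freedom, an intensity trend and Benjamini-Hochberg adjustment over 14721 genes, called under 0.05. The test was tried on simulated data. Alternatives were no filter or one at log2 of 50, quantile normalization, median centring, no trend, robust moderation, a replicate block, the libraries of each comparison alone and leaving out libraries. The members and lists were chosen with earlier results of these data known. Named genes were the members, Nr3c1, up to 2 called genes with the largest difference per list and sex, and the 3 nearest profiles of members with an SD of at least 0.2. A gene that this rule names is not reported here. Promoters came from RefSeq (GRCm38.p6).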

Additional observations from a re-analysis of the deposited data

Results flagged for a closer look

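For 8 of the 10 genes the genotype difference in males was not that in the libraries labelled female, by limma's test of the difference itself (male minus female, log2). The values were 1.29 for Gpx3, -1.03 for Mgst1, -0.72 for Mt1, -0.42 for Mt2, -0.38 for Nqo1, -0.29 for Cat, -0.27 for Gstm1 and -0.21 for Sod2, with adjusted p between 2.19e-15 for Gpx3 and 0.000649 for Mt2. The level of Nr3c1 differed in the same way (-0.70, adjusted p = 1.11e-10), against the female labels. Of all genes tested, 31.3% were called in this test of the difference, 14.3% higher and 17.0% lower.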

How the results depend on the processing

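Of 800 recomputed differences of single members, 777 kept their side of the threshold, 20 lost the call, 2 gained it and 1 turned, changing both sign and side. Called differences among the 777 kept their direction. Some small ones changed sign without being called before or after, such as Sod2 in females, which ranged from -0.036 to 0.047. All 80 of each of Gpx3, Mgst1, Mt1, Cat, Sod2 and Nqo1 were among the 777. The turned one was Mt2 between floxed groups, at -0.12 in place of 0.032 without the libraries labelled female floxed 1 and 2. Hmox1 in males was called after quantile normalization alone (-0.071, adjusted p = 0.0495, within 0.0495 to 0.389 over 15 alternatives). Without the pair of libraries labelled female floxed 1 and 2, genes called in females were 2734 in place of 4309, where fewer libraries were compared. Leaving out 1 library at a time gave 3391 to 3600 called genes in males (4032 with all) and 3393 to 4077 in females. It gave 4133 to 4907 for the difference between the sexes' differences, 5714 to 6141 between floxed groups and 2735 to 2999 between cardioGRKO groups. With the replicate number as a block, 3752 genes were called in males and 3988 in females, 4428 for the difference between these, and 6359 and 3349 between floxed and cardioGRKO groups. Same-numbered libraries correlated by -0.11 to 0.15 across genes, and not every library correlated best with its own number, so the numbers were not taken as pairs. The block ended 1 member's call, that of Hmox1 between cardioGRKO groups. Without counts, depth could not be used to bound low genes such as Mt2 and Hmox1.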
